A study of Mus musculus with 6 samples.

Results

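The collagen genes are the genes whose symbol in the array's annotation is Col, a type number, the letter a and a chain number. There were 42 of them among 18194 genes with a probe set (a group of short probes against 1 transcript) that names 1 gene only. They were measured by 82 probe sets, and each gene was represented by its probe set with the highest mean over the 6 arrays. Whole colon was taken from C57BL/6 mice that were 6 to 8 weeks old, on day 7 of a challenge with 2.5% dextran sodium sulfate (DSS), a compound that injures the colonic epithelium, in the drinking water. The 3 deficient mice were PPAR gamma fl/fl and Lysozyme M Cre+, so that Pparg, the gene of a nuclear receptor that restrains inflammatory genes in macrophages, was deleted in cells with an active Lysozyme M promoter, chiefly macrophages and neutrophils. The 3 control mice were Cre- littermates that carried the same floxed alleles and received the same DSS, so no sample shows colon without DSS or without floxed alleles. Each array held RNA from 1 mouse.

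Collagens are proteins of 3 chains wound into a triple helix, and the family is grouped by what the helices build. Fibrillar types I, III and V form the banded fibres that give the intestinal submucosa its strength, type IV forms the sheet-like network of basement membranes under epithelium and around vessels and muscle cells, and the remaining types decorate fibrils, form beaded filaments or span cell membranes. In the gut they are made mainly by fibroblasts, smooth muscle and endothelial cells, and they are degraded and laid down anew when the mucosa is injured.

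Promoter windows are given for 5 collagens whose values are described below: the paired genes Col4a1 and Col4a2, Col4a5 as a type IV chain with another pattern, and Col1a2 and Col3a1 as fibrillar chains. Each runs 5′ to 3′ on the gene's strand, from 250 bases before the annotated start to 50 bases from it onward, from RefSeq on GRCm38.p6. They lie at chr8:11312777-11313076 on the minus strand for Col4a1, chr8:11312555-11312854 on the plus strand for Col4a2, chrX:141475169-141475468 plus for Col4a5, chr6:4505368-4505667 plus for Col1a2 and chr1:45311288-45311587 plus for Col3a1. Capitals mark the CCAAT box, the GC box GGGCGG and the TATA sequence TATAAA on either strand; a box on the opposite strand appears as its reverse complement.
Col4a1: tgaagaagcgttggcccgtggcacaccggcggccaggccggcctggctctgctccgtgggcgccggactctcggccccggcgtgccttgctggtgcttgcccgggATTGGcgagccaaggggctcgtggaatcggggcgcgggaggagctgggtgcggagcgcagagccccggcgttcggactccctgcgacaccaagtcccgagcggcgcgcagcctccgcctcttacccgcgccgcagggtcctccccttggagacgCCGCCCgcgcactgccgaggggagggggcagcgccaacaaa
Col4a2: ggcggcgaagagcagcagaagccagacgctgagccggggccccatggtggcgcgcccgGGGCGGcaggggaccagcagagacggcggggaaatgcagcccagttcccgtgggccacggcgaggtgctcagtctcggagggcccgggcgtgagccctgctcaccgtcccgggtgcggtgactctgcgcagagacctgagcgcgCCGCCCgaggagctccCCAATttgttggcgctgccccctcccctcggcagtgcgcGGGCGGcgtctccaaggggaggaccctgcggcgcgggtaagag
Col4a5: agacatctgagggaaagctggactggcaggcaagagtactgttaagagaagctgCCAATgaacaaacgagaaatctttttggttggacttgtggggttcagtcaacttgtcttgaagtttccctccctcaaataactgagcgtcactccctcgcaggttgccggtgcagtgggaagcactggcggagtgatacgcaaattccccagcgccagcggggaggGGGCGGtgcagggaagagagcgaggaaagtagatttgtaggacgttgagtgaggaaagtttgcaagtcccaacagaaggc
Col1a2: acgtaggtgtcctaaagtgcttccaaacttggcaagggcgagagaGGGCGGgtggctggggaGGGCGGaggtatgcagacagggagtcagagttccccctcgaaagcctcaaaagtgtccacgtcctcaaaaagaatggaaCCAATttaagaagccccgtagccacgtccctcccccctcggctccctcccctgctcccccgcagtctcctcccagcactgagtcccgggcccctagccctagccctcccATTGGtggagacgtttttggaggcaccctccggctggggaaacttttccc
Col3a1: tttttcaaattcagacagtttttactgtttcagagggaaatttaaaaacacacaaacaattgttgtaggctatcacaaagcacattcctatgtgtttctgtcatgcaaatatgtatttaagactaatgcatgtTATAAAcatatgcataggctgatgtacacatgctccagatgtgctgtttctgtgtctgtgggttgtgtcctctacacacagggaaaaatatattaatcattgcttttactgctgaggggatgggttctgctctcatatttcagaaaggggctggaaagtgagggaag

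Col4a1 and Col4a2 are transcribed in opposite directions from annotated starts 21 bases apart, and their first bases overlap. Their windows share 78 bases, which hold 1 of the searched motifs, a GGGCGG box printed in both. The starts of Col4a5 and of its neighbour Col4a6 are 1343 bases apart and their windows do not overlap. GC content was 74.0% for Col4a1 and 73.7% for Col4a2, against 52.7% for Col4a5, 61.0% for Col1a2 and 37.7% for Col3a1. GGGCGG was found in 22 of 36 windows of 33 collagen genes (61.1%) and in 35.7% of all 32851 windows in the table. The shares for CCAAT were 36.1% and 37.4%, and those for TATAAA 13.9% and 13.6%, so the collagen windows were near the share of all windows for both. Col3a1 alone of the 5 printed windows held TATAAA, and it held neither of the other motifs.

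Values are log2 expression summaries, so a difference of 1 is a doubling. The arrays had 41.4% to 42.7% of their probe sets above log2 4. Control replicate 1 and deficient replicate 3 stood apart: the summed log2 level of 9 enterocyte markers of the small intestine was 17.16 and 16.49 on these 2 arrays and 10.92 to 12.87 on the other 4. That of 8 colonocyte markers was lower on them, 12.43 and 13.64, than on the rest, 14.77 to 15.67. The rest are called the 4 arrays without small intestine genes, which stands for lower levels and not for none. Fabp2 read 10.65 to 12.48 on them, against 15.02 and 13.94 on control replicate 1 and deficient replicate 3. Apoa1 read 7.38 on deficient replicate 1 and 4.72 on deficient replicate 2, against 3.85 and 3.82 on control replicates 2 and 3. Results are therefore given over all 6 arrays, over the other 4 (2 per genotype) and between these 2, where there is 1 array per genotype and no test. Of 6 colonocyte markers above log2 4 on at least 3 arrays, 4 had both deficient samples above both controls on the other 4 arrays. Another 2 had both below. Hoxa10 read 7.23 and 7.07 in control replicates 2 and 3 and 8.92 and 8.88 in deficient replicates 1 and 2. Hoxd10 read 6.59 and 6.51 against 3.91 and 2.29, and Hoxb13 was above 4 on deficient replicate 2 only, at 7.30. Whether the 4 arrays hold the same part of the colon was not tested. Pparg ran from 5.28 to 9.91 in control and from 4.15 to 8.77 in deficient samples, and overlapped over 6 arrays. Over the 4 arrays without small intestine genes both deficient samples were below both controls, as in 18.4% of all genes. Deficient minus control, Pparg differed by -1.22 there and by -1.13 between the other 2 arrays. Where its probe set lies with respect to the deleted exons was not analysed here, so it does not check the deletion. Lyz2, the gene whose promoter drives the Cre, read 11.79 to 12.32 in control samples and 6.80, 6.24 and 10.39 in deficient replicates 1 to 3. Every deficient sample was below every control for Lyz2, as in 4.15% of all genes, and the cause was not tested. Genotypes were compared with limma, deficient minus control, with Benjamini-Hochberg adjustment over the 10491 genes tested.

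Of the 42 collagens, 23 were tested, having a probe set above log2 4 on at least 3 arrays: 7 of 11 fibrillar, 6 of 9 basement membrane and 10 of 22 other genes. Of these, 21 were above 4 on all 6 arrays, and Col4a6 and Col6a4 on 5, so none was kept through 1 genotype only. The other 19 were not tested, and 17 of them lay at or under log2 4 on every array. Among them were the cartilage collagens Col2a1, Col9a1, Col9a2, Col9a3, Col10a1 and Col11a2, and the type IV chains Col4a3 and Col4a4 of the kidney filter. So were Col7a1, which anchors the skin's basement membrane, Col17a1 of hemidesmosomes, and Col6a5, Col19a1, Col20a1, Col22a1, Col24a1, Col25a1 and Col26a1. Col11a1 reached 4.77 on control replicate 2 and read 2.27 to 2.30 elsewhere, and Col8a2 was above 4 on control replicate 2 at 4.24 and deficient replicate 3 at 4.02. Col13a1 and Col4a6 passed the filter but had the same value on 4 arrays within 0.005, at 4.49 and 4.03, so their differences say little.

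None of the 23 collagens passed a limma adjusted p of 0.05, nor did any of the 10491 genes (0.00%). Adjusted p ran from 0.667 to 0.977 for the collagens, with 1 under an unadjusted p of 0.05, Col14a1, and that lower, where 7.46% of all genes were under it in either direction, 5.10% higher and 2.36% lower. The difference was positive for 17 of 23 collagens, with a median of 0.47, against 57.0% of all genes and a median of 0.06. These figures rested on single arrays. Without control replicate 1, 11 of 23 were higher with a median of -0.04, and without deficient replicate 2, 13 were higher with a median of 0.05. Without deficient replicate 3, 18 were higher with a median of 0.76. Over the 4 arrays without small intestine genes 16 of 23 were higher (58.3% of all genes) with a median of 0.37, and between the other 2 arrays 16 were higher (50.4%) with a median of 0.32. With arrays weighted by how closely they followed the mean of their own genotype, 11 of 23 were higher and the median was -0.04. Deficient replicate 1 had a weight of 7.25 and deficient replicates 2 and 3 had 0.50 and 0.47. That fit therefore rested mostly on 1 deficient array.

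**Figure D1:**
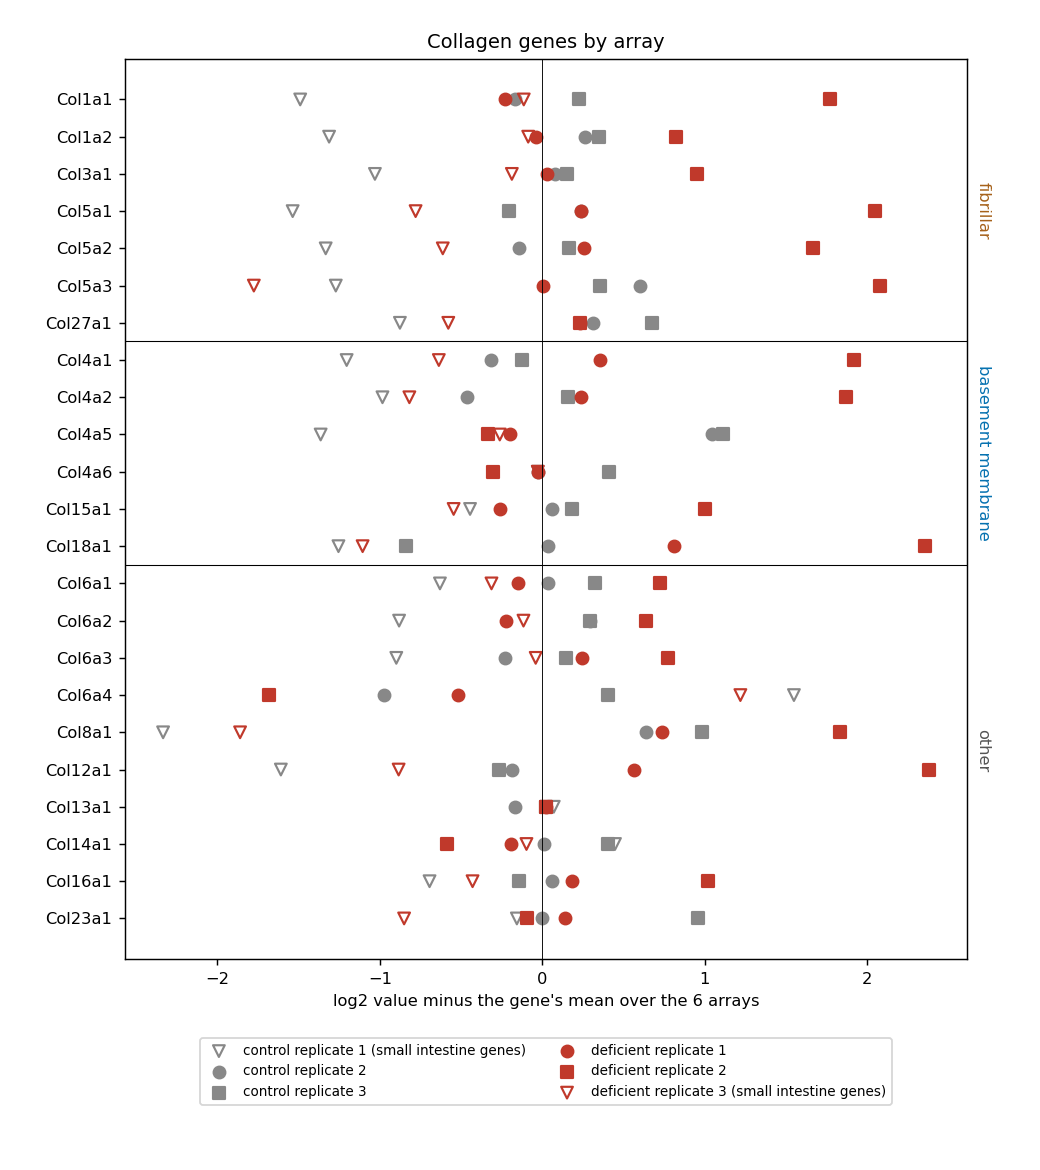
Each row is 1 of the 23 tested collagens and each symbol 1 array, placed at its log2 value minus the gene's mean over the 6 arrays; grey is control, red deficient, and open triangles are the 2 arrays with small intestine genes. Deficient replicate 2 was the highest array for 16 genes and control replicate 1 the lowest for 16.

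The highest and the lowest collagen values each fell mostly on 1 array. How the spread divides between array and genotype was not tested. Deficient replicate 2 was the highest of the 6 arrays for 16 of 23 collagens, against 28.9% of all genes. Control replicate 1 was the lowest for 16 of 23, against 21.7% of all genes. Both arrays with small intestine genes were low: 20 of 23 collagens were lower there on average than on the other 4, against 55.3% of all genes, with a median of -1.05 against -0.05. Deficient replicate 2 exceeded the mean of control replicates 2 and 3 by a median of 0.84 over the 23 collagens. Deficient replicate 1 lay close to those controls, at a median of -0.22, above them for 9 of 23 genes.

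Some marker lists of other cell types, those of fibroblasts, endothelium and macrophages, were highest on deficient replicate 2 and lowest on control replicate 1 as well, and others were not. The summed log2 level of 12 fibroblast markers was 13.97 on deficient replicate 2, 12.15 and 12.51 on the arrays with small intestine genes and 13.06 to 13.11 on the other 3. Of its 11 tested members 8 were higher in deficient samples, with group ranges of 12.15 to 13.11 in control and 12.51 to 13.97 in deficient samples. Without deficient replicate 2 that was 5 of 11, with a median difference of -0.06 in place of 0.35. The 10 endothelial markers ran from 9.10 to 9.55 in control and from 9.18 to 10.20 in deficient samples, with 8 of 9 tested higher (median 0.35). Without deficient replicate 2, 3 of 9 were higher (median -0.02). Smooth muscle markers, 10 in all, ran from 14.85 to 15.97 and from 15.21 to 15.75, with the top on control replicate 2. Of these, 3 of 10 were higher over 6 arrays and over the 4 without small intestine genes, 8 of 10 between the other 2 arrays, and 0 of 10 without control replicate 1. Macrophage markers, 12 in all, ran from 11.37 to 12.02 and from 11.93 to 13.09, with 10 of 12 higher. Neutrophil markers ran from 6.98 to 9.54 and from 8.74 to 13.26, with 5 of 5 tested higher. Of the 8 measured, Cxcr2 and Ngp lay at or under 4 on all arrays, and only 2 lay above 4 on all arrays. The remaining tested members could have passed the filter through their high arrays, so 5 of 5 says little. The 10 epithelial markers ran from 16.53 to 17.04 and from 16.64 to 16.74, with the top on control replicate 1. Of these, 3 of 10 were higher over 6 arrays, 7 of 10 over the 4 without small intestine genes and 1 of 10 between the other 2. The 6 adipocyte markers ran from 12.91 to 13.96 and from 12.07 to 12.39, with 0 of 5 higher and Lep at or under 4 throughout. Each range is control first and then deficient. Of all genes 57.0% were higher over 6 arrays, 58.3% over the 4 without small intestine genes and 50.4% between the other 2. The part of these cell types in the collagen values was not tested, and in whole tissue fewer cells of a type and less RNA per cell cannot be told apart.

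Fibrillar collagens were higher for 6 of 7 genes, with a median difference of 0.53, and in each of those 6 the highest array was deficient replicate 2. Col1a1, a chain of type I collagen, the main fibre protein, read 7.20, 8.52 and 8.92 in control replicates 1 to 3 and 8.46, 10.47 and 8.58 in deficient replicates 1 to 3. The probe sets of Col1a1, Col1a2 and Col3a1 were 1455494_at, 1450857_a_at and 1427883_a_at. For Col1a1 the groups overlapped: deficient replicates 1 and 3 fell among the controls, and deficient replicate 2 stood above all. The means were 9.17 ± 1.13 (SD, n = 3) and 8.22 ± 0.90, a difference of 0.95 (standard error 0.70), with an interval of 95% from -0.77 to 2.68 and a limma adjusted p of 0.774. Its partner chain Col1a2 read 11.27, 12.85 and 12.93 in control and 12.54, 13.41 and 12.50 in deficient samples. Here too deficient replicate 2 was highest and control replicate 1 lowest, and the difference of 0.47 (standard error 0.53) came to 0.09 over the 4 arrays without small intestine genes and 1.23 between the other 2. Without control replicate 1 it was -0.07. Col3a1, the chain of type III collagen, which shares fibres with type I in elastic organs, read 12.96, 14.07 and 14.15 against 14.02, 14.94 and 13.80. Its groups overlapped as well, with a difference of 0.53 (standard error 0.45, limma adjusted p = 0.793).

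Col5a1 and Col5a2, type V chains that set the width of fibrils, differed by 1.002 and 0.87, and by 1.12 and 0.95 over the 4 arrays without small intestine genes. Col5a3, a further type V chain, differed by 0.21 and ran from 4.14 on deficient replicate 3 to 7.999 on deficient replicate 2. Col27a1, a fibrillar collagen best known from cartilage, was the exception at -0.08. Most of the class stood above control replicates 2 and 3 on deficient replicate 2 and not on deficient replicate 1. The first of these exceeded the mean of those controls by a median of 1.60, in 6 of 7 genes, while deficient replicate 1 was above that mean in 2 of 7, with a median of -0.26. The median of the class was 0.19 without deficient replicate 2, 0.15 without control replicate 1 and 1.15 without deficient replicate 3.

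**Figure D2:**
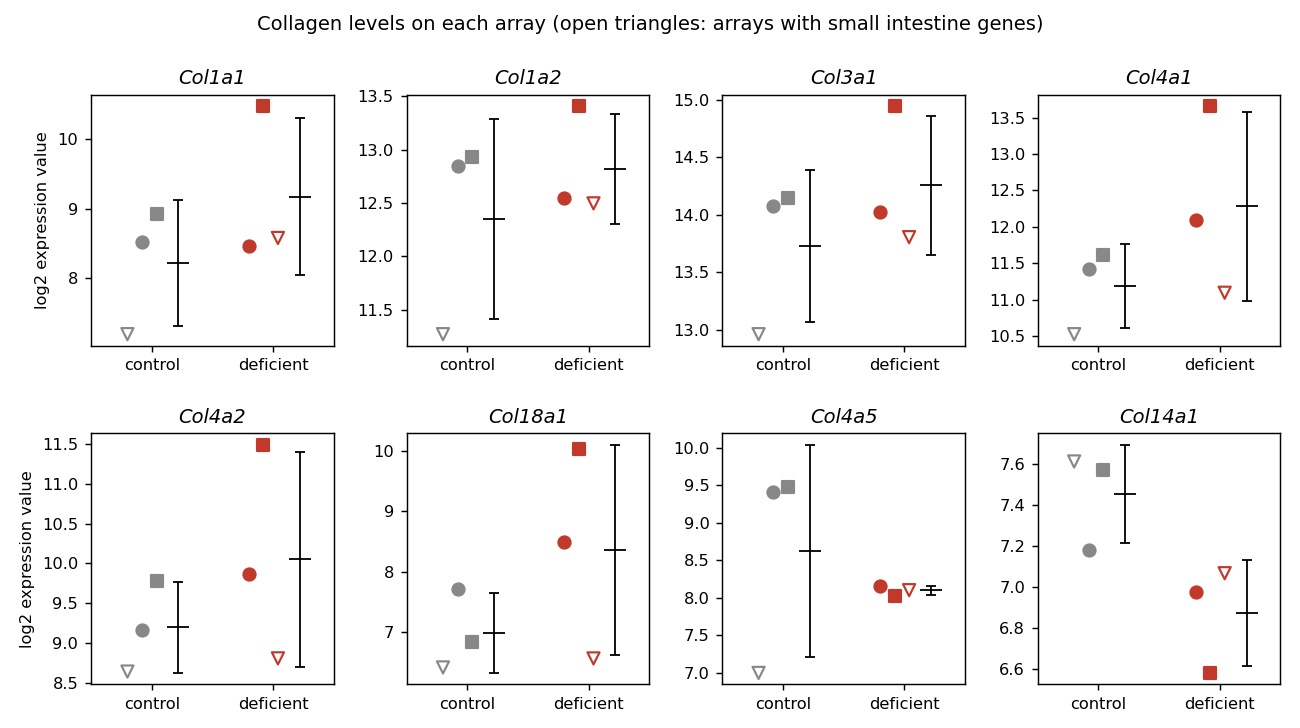
Log2 values of 8 collagens on each array, grey for control and red for deficient, with circles and squares for the 4 arrays without small intestine genes and open triangles for the other 2; horizontal marks and bars are the group mean and SD (n = 3). Col1a1, Col1a2 and Col3a1 were high on deficient replicate 2 (square) alone, Col4a1, Col4a2 and Col18a1 on deficient replicates 1 and 2, and Col14a1 was lower in all 3 deficient samples.

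Basement membrane collagens did not run in 1 direction. Of 6 tested genes 4 were higher, with a median of 0.50. Without deficient replicate 2, 3 of 6 were higher and the median was -0.0033; it was 0.26 without control replicate 1 and 0.96 without deficient replicate 3. Col4a1 and Col4a2 encode the chains of the network found in nearly all basement membranes. Col4a1 read 10.53, 11.42 and 11.61 in control and 12.09, 13.66 and 11.10 in deficient samples, and Col4a2 read 8.64, 9.16 and 9.78 against 9.86, 11.49 and 8.81. Their probe sets were 1452035_at and 1424051_at. In both genes deficient replicates 1 and 2 were above every control array, and deficient replicate 3, with small intestine genes, fell among the controls. The difference of Col4a1 was 1.09 (standard error 0.69, limma adjusted p = 0.740), and that of Col4a2 was 0.86 (standard error 0.71). Over the 4 arrays without small intestine genes they came to 1.36 and 1.21, and between the other 2 arrays to 0.57 and 0.17. A second Col4a1 probe set gave 1.19 over the 4 and -0.11 between the 2, so the direction in that pair differed between probe sets. These are the genes whose starts lie 21 bases apart in the windows printed above.

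Col18a1, a basement membrane proteoglycan whose end fragment is endostatin, had the largest difference of the class. On probe set 1418237_s_at its values were 6.42, 7.71 and 6.83 in control and 8.49, 10.03 and 6.57 in deficient samples. Deficient replicates 1 and 2 stood above all controls, with deficient replicate 3 among the lowest arrays. The difference was 1.37 (standard error 0.90, limma adjusted p = 0.745), and 1.99 over the 4 arrays without small intestine genes (limma adjusted p 0.329). Between the other 2 arrays it was 0.15. Its second tested probe set gave 1.05 over 6 arrays, 1.71 over 4 and -0.27 between the other 2, the opposite direction there. Col15a1, the closest relative of Col18a1, differed by 0.13.

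Col4a5, a chain of the type IV network around smooth muscle and under some epithelia, ran against Col4a1 and Col4a2 and is shown for that reason, having been picked after its values were seen. On probe set 1425476_at control samples read 7.00, 9.41 and 9.47 and deficient samples 8.16, 8.03 and 8.10. The 3 deficient values lay within 0.13 of each other, below control replicates 2 and 3 and above control replicate 1. Over 6 arrays the difference was -0.53 (standard error 0.69). Over the 4 arrays without small intestine genes it was -1.35, with an unadjusted limma p of 0.00157 and a limma adjusted p of 0.233, and between the other 2 arrays it was 1.10. The direction therefore differed between the 2 kinds of array, and this was not tested. A second Col4a5 probe set gave -0.39 over 6 arrays and -0.81 over 4. Its neighbour Col4a6 was near the filter and differed by -0.24.

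Of the 10 tested genes of other types 7 were higher, with a median of 0.19, or -0.07 without control replicate 1 and -0.02 without deficient replicate 2. Among them, the fibril-associated collagens, which coat fibrils and link them to the surrounding matrix, held the difference largest in size, that of Col12a1. Col12a1, made in tissues under tension, on probe set 1434411_at read 6.12, 7.55 and 7.47 in control and 8.297, 10.12 and 6.85 in deficient samples. As with Col4a1, deficient replicates 1 and 2 were above every control array and deficient replicate 3 was not. The difference was 1.37 (standard error 0.88, limma adjusted p = 0.742), and 1.70 over the 4 arrays without small intestine genes. Col16a1 differed by 0.52 over 6 arrays and by 0.64 over those 4.

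Col14a1, which binds type I fibrils and limits their width, had all 3 deficient samples below all 3 controls. On probe set 1427168_a_at it read 7.61, 7.18 and 7.57 in control and 6.97, 6.58 and 7.07 in deficient samples. It was the 1 collagen of 23 whose groups did not overlap over 6 arrays, where 4.15% of all genes were separate and lower and 9.36% separate and higher. The means were 6.87 ± 0.26 against 7.45 ± 0.24 (SD, n = 3). They differed by -0.58 (standard error 0.22), with an interval of 95% from -1.11 to -0.05, unadjusted for other genes, and a limma adjusted p of 0.667. It was -0.60 over the 4 arrays without small intestine genes and -0.55 between the other 2. Leaving out any 1 array gave -0.72 to -0.43. The second tested Col14a1 probe set gave -0.12 with overlapping groups, so the size depends on the probe set.

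Type VI collagen forms beaded filaments between cells and fibres. Col6a1 read 9.52, 10.19 and 10.47 in control and 9.999, 10.88 and 9.84 in deficient samples, and Col6a2 read 9.84, 11.02 and 11.02 against 10.50, 11.36 and 10.61. Both groups overlapped, with differences of 0.18 and 0.20. Over the 4 arrays without small intestine genes these were 0.11 and -0.09. Col6a3, the largest type VI chain, read 8.81, 9.48 and 9.86 against 9.95, 10.48 and 9.67. Its deficient replicates 1 and 2 were above all controls, and deficient replicate 3 lay between control replicates 2 and 3. The difference was 0.65 (standard error 0.35, limma adjusted p = 0.714), 0.55 over the 4 arrays without small intestine genes and 0.86 between the other 2.

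Col6a4, a further type VI chain, ran with the small intestine genes. It read 6.99 and 6.66 on the 2 arrays that carried them and 3.76 to 5.84 on the other 4, and its genotype difference was -0.65. Col8a1, a short-chain collagen of vessel walls, was low where Col6a4 was high, at 4.74 and 5.22 on those 2 arrays and 7.72 to 8.91 on the other 4. Of the 23 collagens it had the widest range over arrays, 4.17, beside a genotype difference of 0.48 (standard error 1.26). Both were picked after their values were seen. The transmembrane collagens Col23a1 and Col13a1 differed by -0.54 and 0.05.

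**Figure D3:**
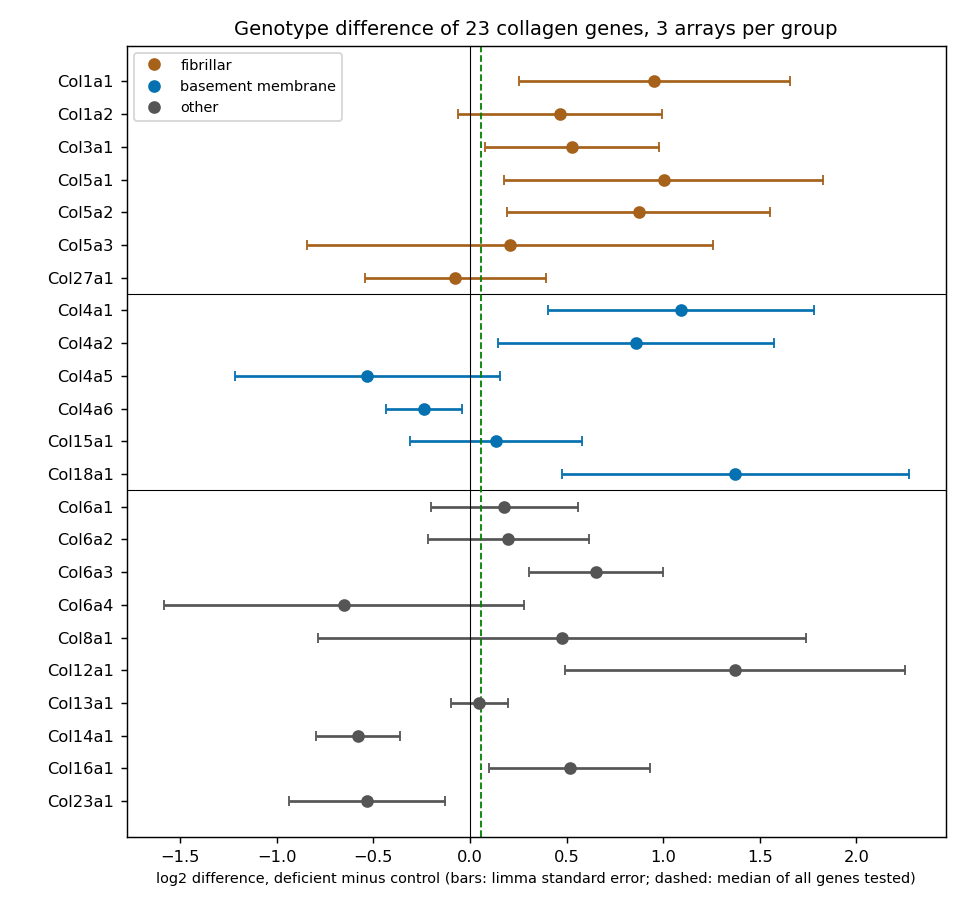
Log2 difference, deficient minus control, of the 23 tested collagens by type; points are differences over 6 arrays, bars limma standard errors and the dashed line the median of all genes tested, 0.06. Col12a1 and Col18a1 lay at 1.37 with wide bars, and Col14a1 at -0.58 with a narrow one.

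Within the 4 arrays without small intestine genes, 7 of 23 collagens had both deficient samples above both controls: Col4a1, Col4a2, Col18a1, Col5a2, Col6a3, Col12a1 and Col16a1. Col4a5, Col14a1 and Col27a1, 3 in all, had both below. Over all genes 30.5% were separate and higher and 18.4% separate and lower on these arrays, so neither count is above the background. By type, 1 of 7 fibrillar, 3 of 6 basement membrane and 3 of 10 other genes were separate and higher. With the 2 kinds of array as a block, limma left 3 collagens under an unadjusted p of 0.05, Col14a1, Col6a3 and Col12a1, against 13.4% of all genes, and none under an adjusted p of 0.05 (0.00% of all genes).

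**Figure D4:**
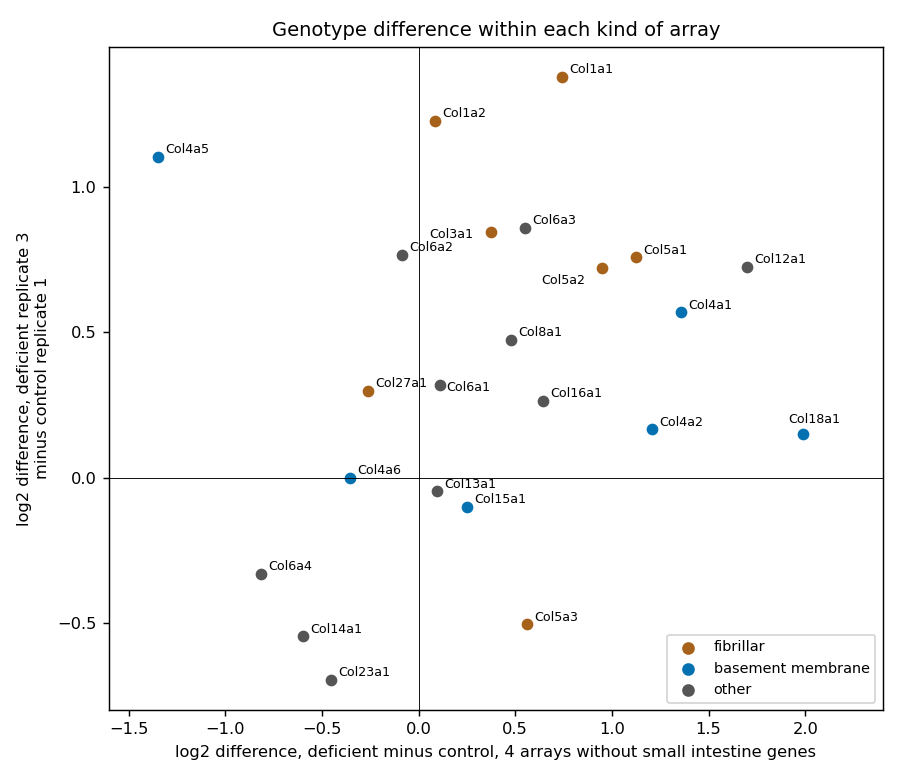
Each point is 1 of the 23 tested collagens, with the log2 difference between genotypes over the 4 arrays without small intestine genes on the horizontal axis and the difference between deficient replicate 3 and control replicate 1 on the vertical axis. Col4a1 lay at 1.36 and 0.57 on the probe set plotted (1.19 and -0.11 on its second), Col14a1 was lower in both comparisons, and Col4a5 lay at -1.35 and 1.10.

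Several tested probe sets were present for 12 collagens. All 12 had the same direction on each of their probe sets over 6 arrays, and 11 over the 4 arrays without small intestine genes, Col6a2 being the exception. Between deficient replicate 3 and control replicate 1, the probe sets of Col4a1, Col18a1, Col8a1 and Col23a1 differed in direction. Col1a1 gave 0.95 and 0.53, Col3a1 0.53 and 0.71, and Col4a1 1.09 and 0.76.

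Genes that act on collagen were taken from 5 lists. No member passed a limma adjusted p of 0.05. Of all genes 57.0% were higher over 6 arrays, the share to set beside each 6-array count below. Enzymes that fold and modify collagen chains in the endoplasmic reticulum were higher for 14 of 17 tested members (of 21 listed), with a median of 0.31. Without deficient replicate 2, 10 of 17 were higher with a median of 0.03, and without control replicate 1, 11 with a median of 0.13; the median was 0.55, 0.65 and 1.001 without control replicates 2 and 3 and deficient replicate 3. Plod3, a lysyl hydroxylase that also adds sugars to collagen, read 5.53, 5.72 and 6.17 in control and 6.90, 7.27 and 6.51 in deficient samples. Every deficient sample was above every control, as in 2 of the 17 tested members and in 9.36% of all genes. The difference was 1.09 (standard error 0.27, limma adjusted p = 0.659). P3h3, a relative of the prolyl 3-hydroxylases, read 3.89 to 4.17 against 4.32, 6.01 and 4.50, a difference of 0.90 that started near the filter of log2 4.

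Genes that trim procollagen and crosslink fibres were higher for 6 of 6 tested members of 13 listed, with a median of 0.69. It was 0.19 without deficient replicate 2, 0.38 without control replicate 1 and 1.14 without deficient replicate 3. Lox, the crosslinking enzyme lysyl oxidase, read 4.29, 6.23 and 5.89 in control and 7.04, 9.16 and 4.42 in deficient samples, a difference of 1.41 (standard error 1.25). Deficient replicates 1 and 2 were above all controls, as for Col4a1 and Col12a1. Adamts3, a procollagen protease, differed by 0.60, and lay near the filter of log2 4. It ran from 3.54 to 4.04 in control and from 3.96 to 5.10 in deficient samples. Pcolce2, a listed gene above log2 4 on only 2 arrays and so not tested, ran against the 6 tested members. Its values were 3.13, 4.71 and 4.32 in control and 3.07, 3.03 and 3.07 in deficient samples. Matrix proteins that bind collagen were higher for 14 of 17 tested (of 18), with a median of 0.45. Without deficient replicate 2 the list turned, with 6 of 17 higher and a median of -0.05. Without control replicate 1, 10 were higher with a median of 0.04, and the median was 0.68 without control replicate 3 and 0.82 without deficient replicate 3. Thbs1, a matrix protein of injured tissue, differed by 2.17 (standard error 1.22) and Fmod, a proteoglycan on fibrils, by -0.98.

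Collagen receptors were higher for 7 of 7 tested members of 10 listed, with a median of 0.43, or 0.04 without deficient replicate 2 and 0.22 without control replicate 2. Itgb1, the shared chain of the collagen-binding integrins, differed by 0.43 and its partner Itga1 by 0.59. Collagen-degrading proteases and their inhibitors were higher for 7 of 8 tested (of 9), with a median of 0.93, or 0.36 without deficient replicate 2 and 1.55 without deficient replicate 3. The collagenase Mmp13 read 6.09, 5.85 and 8.19 in control and 10.75, 13.42 and 7.60 in deficient samples, a difference of 3.88 with a limma adjusted p of 0.667. The inhibitor Timp1 differed by 3.45 (standard error 1.78, limma adjusted p = 0.709) and was highest on deficient replicates 2 and 1. Its groups overlapped, at 3.69, 4.83 and 6.50 in control and 9.49, 11.26 and 4.61 in deficient samples. Over the 4 arrays without small intestine genes the medians of the 5 lists, in the order given, were 0.67, 0.88, 0.46, 0.66 and 1.39, and between the other 2 arrays 0.24, 0.30, 0.45, 0.04 and 0.41. The median of all genes was 0.08 over those 4 arrays.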

How the data were processed

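RNA from 6 colons, 1 array per mouse, was hybridised to Affymetrix mouse arrays. The authors deposited log2 expression values per probe set, made with GCRMA per the submitters' processing notes; the sources used here do not give its version or settings. GCRMA models background on probe sequence, so probe sets near the lowest value, 2.25, are compressed. Array medians ran from 3.02 to 3.10, and 3 arrays per group limit the precision.

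Of 45101 probe sets, 34958 named 1 gene. Probe sets above log2 4 on at least 3 arrays were kept (17031), and each gene was represented by the kept one with the highest mean, giving 10491 genes. These were fitted with limma 3.58.1 in R 4.3.3 (lmFit, eBayes, two-sided, no covariate) and tested on simulated data. Intervals use limma's moderated error. Lists are described by counts and medians only. Summed marker levels are log2 of summed linear values. The members, the 5 pathway lists and the marker lists (fibroblast, smooth muscle, endothelial, epithelial, small intestine, colonocyte, macrophage, neutrophil, adipocyte) were chosen with earlier results of these data known. Values on each array were given for 8 main chains by role and for the 6 collagens with the smallest unadjusted p. From each pathway list 2 members, those of smallest p, were described. Promoter sequences came from RefSeq (33 of 42 genes matched by symbol).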

Additional observations from a re-analysis of the deposited data

How the results depend on the processing

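No collagen was called under any of the 20 alternatives. The reported fit at a looser adjusted p of 0.1 counts as 1 of them, and the others are fits at an adjusted p of 0.05. Over all genes limma called 1 with probe sets that carry no cross-hybridisation suffix, 2 with array weights and 1 with every probe set on its own, against 0 in the reported fit, where 783 were under an unadjusted p of 0.05. The median difference of all genes was 0.0000 with no filter and 0.0007 after quantile normalization. With no filter the median of the 42 collagens was 0.0000, since the 19 added genes lie mostly at or under log2 4. The medians were then 0.21 for fibrillar, 0.019 for basement membrane and -0.0003 for other types. Those of processing and crosslinking and of receptors were 0.38 and 0.14. With array weights the direction turned for Col1a1 (-0.042), Col1a2 (-0.13), Col5a3 (-0.19), Col6a1 (-0.26), Col6a2 (-0.32) and Col15a1 (-0.28); deficient replicate 1 had the largest weight, 7.25. Without both arrays with small intestine genes Col6a2 was -0.085. Leaving out 1 array at a time gave medians from -0.04 to 0.76 for the collagens, from 0.15 to 1.15 for fibrillar, from -0.0033 to 0.96 for basement membrane and from -0.07 to 0.39 for other types, and from 0.043 to 0.63 for collagen receptors. Genes that changed direction when 1 array was left out were Col1a2 (-0.073 to 0.76), Col5a3 (-0.78 to 1.15), Col6a1 (-0.14 to 0.38), Col6a2 (-0.19 to 0.39), Col6a4 (-1.43 to 0.025), Col8a1 (-0.57 to 1.53), Col13a1 (-0.024 to 0.095), Col15a1 (-0.33 to 0.44), Col27a1 (-0.53 to 0.24) and Pparg (-2.67 to 0.26). The cause was not tested. With the replicate number as a block, limma again called 0 collagens and the median stayed at 0.47; 437 genes were under an unadjusted p of 0.05. The numbers did not pair the samples: deviations of same-numbered arrays correlated at -0.54, 0.36 and -0.61, and 0 of 6 arrays correlated best with their own number. Members under log2 4 cannot be compared on these arrays.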
